A study of Saccharomyces cerevisiae with 64 samples.

Results

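Transcripts of 8 genes that act when homologous chromosomes move, stay joined and separate in the first meiotic division of the budding yeast Saccharomyces cerevisiae were followed through sporulation. REC8 and SGO1 encode proteins that hold sister chromatids together and protect that hold, SPO13, MAM1, LRS4 and CSM1 act in the segregation of homologs, and NDJ1 and CSM4 act in the movement of telomeres. The genes were chosen by name for these roles, with earlier results of these data known. They are 8 of the 6660 genes with values in the authors' table, and all 8 had a value in each of the 32 groups.

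In meiosis I, sister chromatids travel together to one pole while homologs part. Rec8 replaces the mitotic cohesin subunit Mcd1, and shugoshin (Sgo1) keeps Rec8 from being cut near centromeres until meiosis II. Monopolin, made of Mam1, Lrs4, Csm1 and the kinase Hrr25, fuses the sister kinetochores so that both attach to one pole. Spo13 helps keep monopolin and Rec8 in place, and earlier, in prophase, Ndj1 and Csm4 link telomeres through the nuclear envelope to the cytoskeleton, which moves chromosomes while homologs pair.

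The 64 polyadenylated RNA samples came from S288c yeast under sporulation conditions, in 32 groups of 2 replicates. Wild type and the kfc1 mutant (labelled kfc1 --) were sampled at 0, 2, 4, 6, 8 and 12 h without overexpression and with IME1 overexpressed (PzevIME1), and at 0, 12, 24 and 48 h with overexpression of both IME1 and RIM4 (PzevIME1 PzevRIM4). IME1 encodes the transcription factor that starts meiosis and RIM4 an RNA-binding protein needed for it. The 24 wild-type samples of the first and second arm are labelled re-used, and the labels do not say from where. In those arms genotype therefore cannot be told apart from re-use, whereas no sample with IME1 and RIM4 is labelled so in either genotype.

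The table held 1 log2 ratio for each gene and group with the replicates already combined, so no value has an error and no test could be run, and sample depths are unknown. Unless stated otherwise, a value is the log2 ratio of a group to its reference, wild type at 0 h without overexpression, in which 1 unit is 2-fold. A ratio ranks conditions within a gene and says nothing of which gene is the more abundant. A call of higher or lower needed a mean log2 difference of at least 1 in size and the same sign at each time point compared, or, where 1 time was compared, a difference of at least 1 in size. The verbs rose and fell are used for called genes. RNA came from whole cultures, so more cells in meiosis and more RNA per cell cannot be told apart.

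As a check of the labels, the transcript of VIR1 (YGL036W), taken from general knowledge to be the gene lost in kfc1, stood between -9.41 and -4.70 in the kfc1 groups and between -0.07 and 2.07 in wild type. In kfc1 without overexpression at 2 to 12 h, the low value came from adding the kfc1 value at 0 h. The deposited values of VIR1 there were near 0, so those 5 groups are no check of the labels. IME1 stood between 3.05 and 4.01 at 2 to 12 h in both genotypes with IME1. The RIM4 level at 12 h with IME1 and RIM4 minus that with IME1 alone was 0.51 in wild type and 1.74 in kfc1. The wild-type IME1 group at 0 h stood apart from the other groups at 0 h, with a standard deviation over genes of 0.937 against 0.344 to 0.675, and IME1 was already at 1.94 in it. The strains also differed in markers. URA3 stood between 5.77 and 9.19 in kfc1 with IME1 and RIM4 and in wild type of that arm had a single value, 1.13 at 24 h, and LEU2 had values with IME1 in wild type (6.87 to 7.91) and none in kfc1. The part of these markers in the genotype differences was not tested.

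The members lie on 6 of the chromosomes in the R64 assembly (sacCer3), and none of the 8 overlaps another gene in its RefSeq annotation. REC8 (YPR007C) spans chromosome XVI from 569336 to 571378, and CSM4 (YPL200W) the same chromosome from 171484 to 171954. NDJ1 (YOL104C) lies on chromosome XV from 116396 to 117454, and SGO1 (YOR073W) on the same chromosome from 464771 to 466543. SPO13 (YHR014W) spans chromosome VIII from 132047 to 132922, MAM1 (YER106W) chromosome V from 372326 to 373234, LRS4 (YDR439W) chromosome IV from 1339676 to 1340719, and CSM1 (YCR086W) chromosome III from 263392 to 263964.

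Windows of 300 bases, from 250 before each start codon to 50 into the coding sequence, were searched on both strands for 2 motifs. The core of URS1, GGCGGC (reverse complement GCCGCC), is bound by Ume6, the DNA-binding protein through which Ime1 turns on early meiotic genes. The core of the middle sporulation element, CACAAA (reverse complement TTTGTG), is bound by Ndt80, which turns on the middle genes as cells commit to division. The URS1 core was present in 308 of the windows of 6001 protein-coding genes (5.13%), and in those of REC8, SPO13, NDJ1, CSM4 and CSM1. The middle element core was present in 1130 windows (18.8%), and in those of SGO1 and MAM1. LRS4 had a match to neither, no member had both, and no match to one motif overlapped a match to the other. The CSM1 match, 236 bases before the start codon, lay inside the neighbouring gene YCR085W, and MAM1 had a further match inside its own coding sequence. A match is a description of the letters, not a shown site.

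The 6 stretches below carry the matches that lie before the start codon outside other genes. They are shown because these genes had the largest ranges over the conditions, CSM1 and LRS4 having the smallest. Each is read 5′ to 3′ on the strand of its gene from the RefSeq R64 genome, with the match in capitals.
REC8, chrXVI:571533-571586, minus strand, 184 bases before the start codon: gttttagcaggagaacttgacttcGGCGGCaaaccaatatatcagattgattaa
SPO13, chrVIII:131928-131981, plus strand, 95 bases before the start codon: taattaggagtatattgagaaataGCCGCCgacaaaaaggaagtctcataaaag
NDJ1, chrXV:117513-117566, minus strand, 88 bases before the start codon: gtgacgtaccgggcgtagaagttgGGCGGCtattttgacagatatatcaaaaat
CSM4, chrXVI:171264-171317, plus strand, 196 bases before the start codon: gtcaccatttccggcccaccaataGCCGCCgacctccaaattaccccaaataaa
SGO1, chrXV:464619-464672, plus strand, 128 bases before the start codon: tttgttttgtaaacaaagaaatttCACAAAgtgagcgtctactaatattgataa
MAM1, chrV:372147-372200, plus strand, 155 bases before the start codon: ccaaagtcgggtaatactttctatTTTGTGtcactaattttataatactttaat

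**Figure D1:**
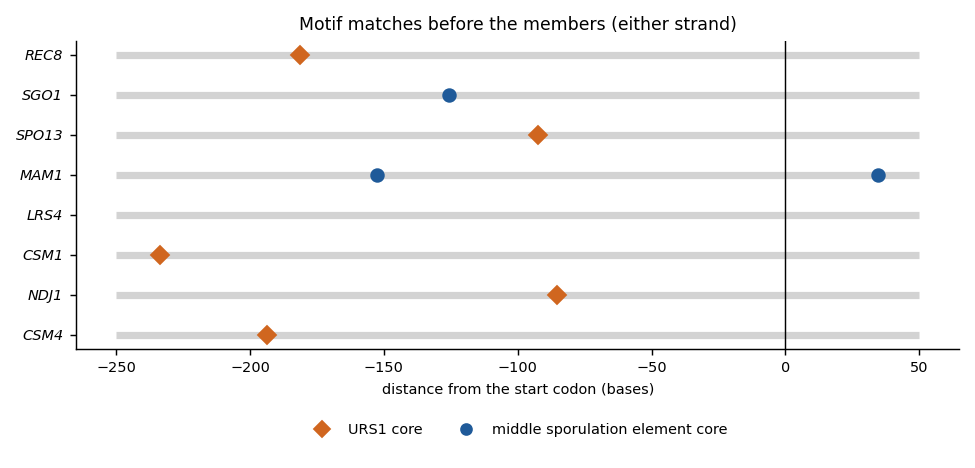
Positions of URS1 core (diamonds) and middle sporulation element core (circles) matches on either strand, by distance in bases from the start codon, for the 8 members. Grey bars are the windows of 300 bases; 5 members have a URS1 core, SGO1 and MAM1 have a middle element core, and LRS4 has neither.

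All 8 members had their highest value in wild type with IME1 and RIM4 at 12 h. NDJ1 reached 7.62 there (197-fold over the reference), MAM1 6.83 (113-fold), SPO13 6.60 (97.2-fold), REC8 5.21 (37.1-fold), SGO1 4.75 (26.9-fold), CSM4 3.15 (8.88-fold), CSM1 2.07 (4.20-fold) and LRS4 0.90 (1.87-fold). The lowest values lay at 0 h for 6 of the 8, the exceptions being CSM4 (-0.45 in wild type without overexpression at 6 h) and LRS4, whose lowest group was kfc1 with IME1 at 2 h. LRS4 spanned 0.90 units over all groups, less than any other member, and NDJ1 8.35.

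In starvation without overexpression, SPO13 and NDJ1 rose in both genotypes and REC8 rose in kfc1, while the other 5 members were called in neither. SPO13 in wild type stood at 0.83, 1.13, 1.40, 1.96 and 2.19 at 2, 4, 6, 8 and 12 h, and in kfc1 at 1.25, 1.00, 1.30, 1.73 and 1.74 after a start of -0.33. NDJ1 in wild type stood at 0.94, 1.07, 1.31, 1.85 and 1.92, and in kfc1 at 1.03, 0.51, 1.36, 1.67 and 1.77 after a start of -0.60. In wild type both genes were higher at each later time than at the one before.

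REC8 in wild type stood at 0.70, 0.50, 0.58, 0.98 and 1.08, and in kfc1 at 1.16, 0.50, 0.71, 0.91 and 0.91 after a start of -0.74. Its mean rise over the own 0 h group was 1.57 in kfc1, and the mean in wild type, 0.77, did not reach the call. The later values of the genotypes lay close together, so the unlike starts enter this difference. SPO13 and NDJ1 were on average 1.50 and 1.42 above 0 h in wild type and 1.73 and 1.87 in kfc1. Of the members, 2 of 8 were called higher in wild type, against 2.37% of all genes, and 3 of 8 in kfc1, against 6.87%. The other members had means between -0.22 (CSM4) and 0.58 (MAM1) in wild type, and between -0.09 (LRS4) and 0.81 (MAM1) in kfc1.

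With IME1, SPO13, NDJ1 and REC8 rose steeply by 2 h in both genotypes and stood highest at 12 h, whereas MAM1 stayed low until 8 h and stood much higher at 12 h. SPO13 in wild type went from -0.77 at 0 h to 3.94, 4.79, 4.91, 5.02 and 6.15 at 2, 4, 6, 8 and 12 h, and in kfc1 from -0.37 to 4.09, 4.63, 4.64, 4.91 and 5.48. NDJ1 in wild type went from -0.27 to 3.79, 4.99, 5.30, 5.41 and 6.73, and in kfc1 from -0.72 to 3.95, 4.97, 5.27, 5.39 and 6.19. Both genes made their largest step between 0 and 2 h.

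REC8 also made its largest step between 0 and 2 h, though a smaller one than SPO13 and NDJ1. In wild type it went from -0.004 at 0 h to 2.11, 3.31, 3.48, 3.81 and 4.79. In kfc1 it went from -0.57 to 2.08, 3.34, 3.67, 3.89 and 4.60. By mean rise over 0 h, SPO13 ranked 9 and NDJ1 10 of 6500 genes in wild type, and NDJ1 7 and SPO13 16 of 6499 in kfc1. REC8 ranked 75 in wild type and 29 in kfc1.

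MAM1 in wild type stood at -0.94, 0.61, 0.66, 0.76 and 1.25 at 0 to 8 h and then at 4.17 at 12 h. In kfc1 it stood at -0.63, -0.08, 0.74, 0.71 and 0.74 and then at 2.30. SGO1 was at -0.87, 0.96, 0.82, 1.22, 1.58 and 2.70 in wild type and at 0.08, 0.94, 0.97, 1.25, 1.40 and 2.02 in kfc1. Both genes thus had their largest step after 2 h between 8 and 12 h in wild type, and MAM1 had a low, flat course before it.

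CSM1, a monopolin subunit also present in the nucleolus of dividing cells, rose from -0.53 to 1.59 in wild type and from -0.27 to 1.19 in kfc1 between 0 and 12 h. CSM4 ended at 2.42 in wild type and 1.74 in kfc1, from starts of 0.88 and 0.26. LRS4, the partner of CSM1, ended at 0.66 and 0.59. Over 2 to 12 h against the own 0 h group, 6 of 8 members were called higher in wild type, against 1560 of 6500 genes (24%; 36.6% were called in either direction). In kfc1 6 of 8 were called higher, against 630 of 6499 genes (9.69%; 14.7% in either direction). CSM4 and LRS4 were the members not called in either. The member median was 2.38 in wild type and 1.37 in kfc1, against 0.06 and 0.03 for all genes.

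The call of CSM1 in both genotypes and of SGO1 in kfc1 depended on the 0 h group. With 0 h without overexpression of the same genotype as the start, the mean of CSM1 was 0.96 in both genotypes and that of SGO1 in kfc1 0.72, and CSM4 passed the call with 1.06 in wild type and 1.05 in kfc1.

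**Figure D2:**
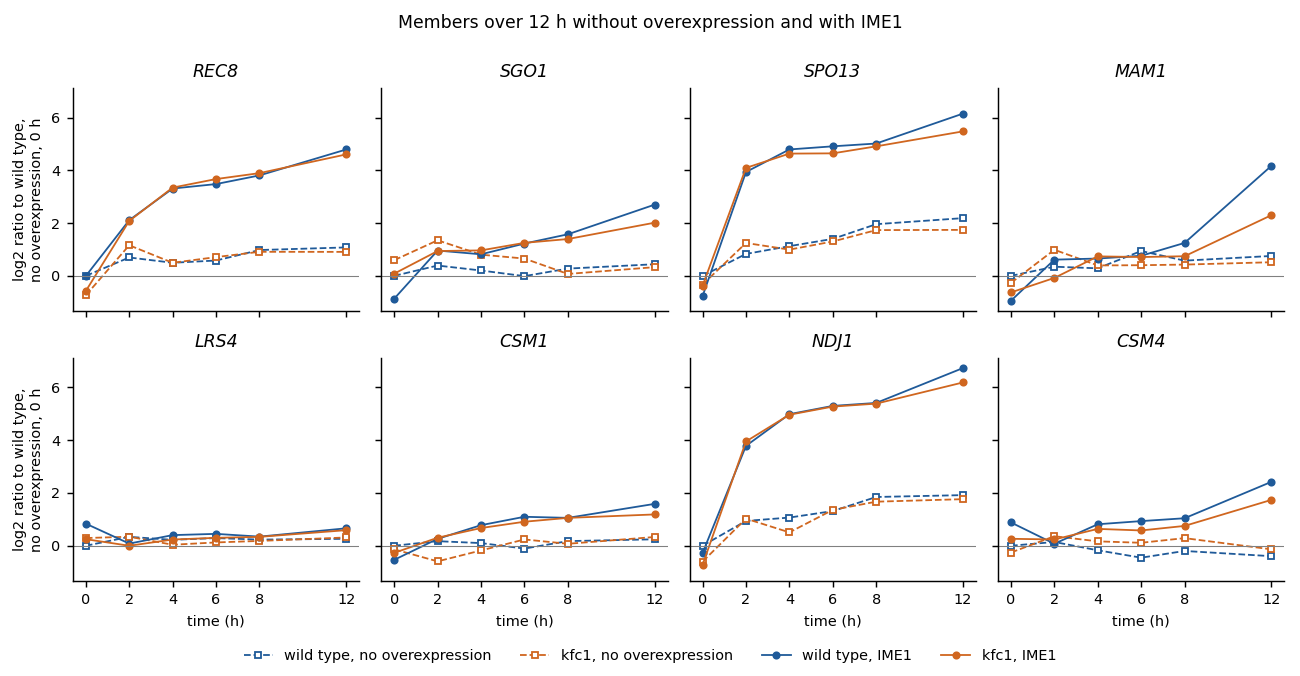
Log2 ratio of each member to wild type without overexpression at 0 h (vertical axis) against time in h, without overexpression (dashed lines, open squares) and with IME1 (solid lines, filled circles), in wild type (blue) and kfc1 (orange); each point is the authors' combined value of 2 replicates. SPO13, NDJ1 and REC8 separate from the dashed lines by 2 h, and MAM1 stands at 4.17 in wild type and 2.30 in kfc1 at 12 h.

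The step from 8 to 12 h with IME1 was called in 5 of 8 members in wild type, against 3.06% of all genes called higher. MAM1 rose by 2.92, CSM4 by 1.38, NDJ1 by 1.32, SPO13 by 1.13 and SGO1 by 1.12, and REC8, at 0.98, lay just under the threshold. In kfc1, MAM1 alone was called, with 1.56, against 4.33% of all genes, and the next largest were CSM4 at 0.99 and NDJ1 at 0.80. NDT80 itself stood at 0.49 at 8 h and 2.12 at 12 h in wild type, and at 0.27 and 0.32 in kfc1. Of 20 middle meiotic genes 17 were called higher in this step in wild type and 5 in kfc1, and of 24 early recombination and axis genes 15 and 4.

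Set directly against the arm without overexpression at the same times, 4 of 8 members were higher with IME1 in wild type, against 6.08% of all genes, and 3 of 8 in kfc1, against 4.06%. NDJ1 was 3.83 higher in wild type (2.84 to 4.82 over the time points) and 3.89 in kfc1 (2.93 to 4.46). SPO13 was 3.46 and 3.35 higher, and REC8 2.73 and 2.68. SGO1 was called in wild type, with 1.20, and had 0.67 in kfc1. Its wild-type call was lost without the 12 h groups, where the mean was 0.93.

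The remaining 4 members were not called in either genotype. CSM4 had a mean of 1.27 in wild type but a difference of -0.07 at 2 h, and without the 2 h groups its mean was 1.61 and it was called. MAM1 had 0.91 in wild type (1.18 and called without the 6 h groups) and 0.34 in kfc1. CSM1 had 0.84 (1.03 and called without the 2 h groups) and 0.85, and LRS4 0.12 and 0.09. The difference between the genotypes in this response was called for 0 of 8 members, against 2.52% of all genes in either direction. It was largest in size for CSM4 (-0.64), MAM1 (-0.57) and SGO1 (-0.52) and between -0.11 and 0.06 for the other 5.

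Between the genotypes, the members lay close together in most conditions. At 0 h 0 of 8 were called in any arm, against 1.64% of all genes without overexpression, 12.6% with IME1 and 2.74% with IME1 and RIM4. The largest 0 h differences, kfc1 minus wild type, were -0.74 for REC8 without overexpression and 0.95 for SGO1 with IME1. Over 2 to 12 h without overexpression the mean differences ran from -0.15 (NDJ1) to 0.38 (SGO1), with 0 of 8 called against 1.80% of all genes. SGO1, the member with the highest mean, had differences of 0.96, 0.60 and 0.67 at 2, 4 and 6 h and of -0.20 and -0.11 at 8 and 12 h.

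With IME1 at 2 to 8 h the mean differences ran from -0.29 (MAM1) to 0.07 (REC8), with 0 of 8 called against 0.477% of all genes. At 12 h all 8 differences were below 0, from -1.87 for MAM1 to -0.07 for LRS4, with a median of -0.61 against -0.05 for all genes. MAM1 alone passed the call, against 4.61% of all genes called lower. SGO1 and CSM4 were -0.68, SPO13 -0.67, NDJ1 -0.55, CSM1 -0.40 and REC8 -0.19. NDT80 differed by -1.80 and CDC5, which encodes a kinase turned on by Ndt80 and needed for monopolin to act, by -1.64.

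**Figure D3:**
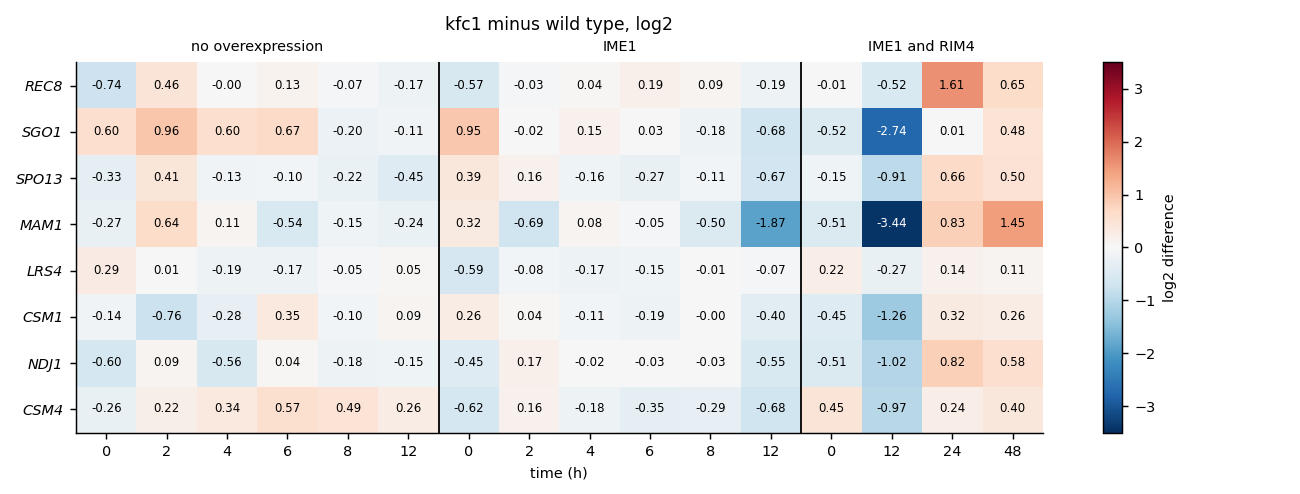
Log2 difference of kfc1 minus wild type for each member (rows) at each time in h (columns) in the 3 arms, printed in each cell; red is higher and blue lower in kfc1. Most cells lie between -1 and 1, and the largest in size are MAM1 (-3.44) and SGO1 (-2.74) at 12 h with IME1 and RIM4.

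With IME1 and RIM4 together, the members went up in both genotypes, and in wild type 12 h was the highest of the sampled times. Over 12 to 48 h against 0 h, 7 of 8 members were called higher in wild type, against 15.5% of all genes, and 7 of 8 in kfc1, against 20.4%. LRS4 was the exception, with means of 0.57 and 0.34. MAM1 rose by 5.75 in wild type and 5.87 in kfc1, NDJ1 by 6.18 and 6.82, SPO13 by 5.56 and 5.80, REC8 by 4.51 and 5.10, and SGO1 by 3.21 and 2.98. CSM4 rose by 2.08 and 1.52, and CSM1 by 1.74 and 1.97.

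The genotypes differed in the sampled time at which some of the transcripts were highest. MAM1 in wild type stood at -0.32, 6.83, 5.59 and 3.87 at 0, 12, 24 and 48 h, and in kfc1 at -0.83, 3.39, 6.42 and 5.32. SGO1 stood at 0.35, 4.75, 3.57 and 2.35 in wild type and at -0.17, 2.01, 3.58 and 2.82 in kfc1. CSM1 stood at -0.17, 2.07, 1.71 and 0.93 in wild type and at -0.62, 0.81, 2.03 and 1.19 in kfc1. For these 3 genes the highest group was 12 h in wild type and 24 h in kfc1.

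REC8 stood at -0.45, 5.21, 3.14 and 3.82 in wild type and at -0.46, 4.69, 4.75 and 4.47 in kfc1. SPO13 stood at -0.20, 6.60, 4.59 and 4.90 in wild type and at -0.35, 5.69, 5.26 and 5.40 in kfc1. NDJ1 stood at 0.03, 7.62, 5.40 and 5.62 in wild type and at -0.48, 6.60, 6.22 and 6.20 in kfc1. In wild type these 3 genes had a sharp peak at 12 h, and in kfc1 they held a plateau from 12 to 48 h. CSM4 stood at 0.08, 3.15, 1.57 and 1.75 in wild type and at 0.53, 2.18, 1.81 and 2.15 in kfc1, and LRS4 at no more than 0.90 in either.

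From 12 to 24 h, 6 of 8 members fell in wild type, against 7.33% of all genes, and 0 of 8 fell in kfc1, against 3.74%. In wild type NDJ1 fell by 2.22, REC8 by 2.07, SPO13 by 2.01, CSM4 by 1.58, MAM1 by 1.23 and SGO1 by 1.18. In kfc1, 3 of 8 rose, against 10.5% of all genes, MAM1 by 3.03, SGO1 by 1.56 and CSM1 by 1.22, and the other 5 changed by -0.43 to 0.06. From 24 to 48 h, MAM1 fell by 1.72 and SGO1 by 1.22 in wild type, against 6.34% of all genes called lower, and MAM1 fell by 1.10 in kfc1, against 4.79%.

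The genotype difference accordingly changed sign. At 12 h 4 of 8 members were lower in kfc1, against 11.1% of all genes, with differences of -3.44 for MAM1, -2.74 for SGO1, -1.26 for CSM1 and -1.02 for NDJ1. CSM4, at -0.97, and SPO13, at -0.91, lay just outside the threshold. All 8 differences were below 0, with a median of -0.997 against -0.03 for all genes. At 24 h all 8 differences were above 0, and REC8, at 1.61, was called, against 4.07% of all genes called higher. SGO1 was nearly equal in the genotypes at 24 h (3.58 in kfc1, 3.57 in wild type), and LRS4 differed little (0.57 and 0.44). At 48 h all 8 were again above 0, and MAM1, at 1.45, was called, against 3.13%. Taken over 12 to 48 h as 1 comparison, 0 of 8 members were called, against 2.41% of all genes. The sign differed between times, and without the same-sign rule the count was also 0 of 8, as no mean reached the threshold.

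The middle regulators had the same order. NDT80 stood at 4.61, 3.63 and 1.48 at 12, 24 and 48 h in wild type and at 1.26, 4.07 and 2.71 in kfc1, and CDC5 at 4.89, 3.40 and 1.46 and at 0.87, 3.90 and 2.46. At 12 h 19 of 20 middle meiotic genes were lower in kfc1 (median -4.32) and 3 of 24 early recombination and axis genes (median -0.75). Of all genes 11.1% were called lower, so that 3 of 24 is near the share over the table. IME2, an early kinase gene, differed by -1.54 and IME1 by -0.19.

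**Figure D4:**
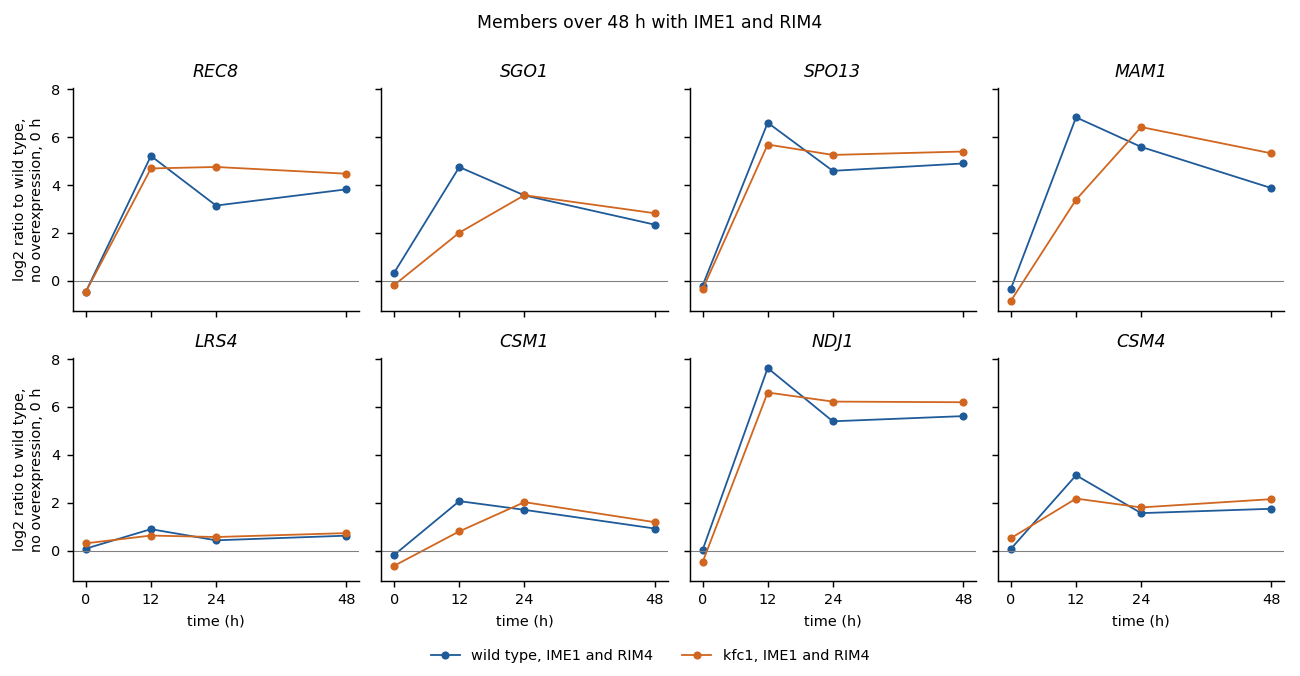
Log2 ratio of each member to wild type without overexpression at 0 h (vertical axis) against time in h with IME1 and RIM4, in wild type (blue) and kfc1 (orange); each point is the authors' combined value of 2 replicates. MAM1, SGO1 and CSM1 are highest at 12 h in wild type and at 24 h in kfc1, and LRS4 stays under 1.

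Adding RIM4 to IME1 was compared at 12 h, the one later time the arms share. In wild type 2 of 8 members were higher with both, against 8.98% of all genes: MAM1 by 2.66 and SGO1 by 2.05. The other 6 ran from 0.24 (LRS4) to 0.89 (NDJ1). In kfc1 MAM1 was higher by 1.09, against 2.06% of all genes, and the others ran from -0.38 (CSM1) to 0.44 (CSM4). SGO1 was 2.02 with IME1 and 2.01 with both in kfc1. NDT80 with both minus NDT80 with IME1 was 2.49 in wild type and 0.94 in kfc1. The wild-type comparison uses the same 12 h group with IME1 and RIM4 as the genotype comparison above, so these values are not independent of each other. Of these wild-type arms, only that with IME1 alone is labelled re-used.

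The partners of the members were counted in the same way. Of 11 genes for cohesin and its regulators, 9 rose with IME1 over 2 to 12 h in wild type (median 2.55) and 7 in kfc1 (median 1.38), among them SMC3 (3.93 and 2.23), PDS5 (3.34 and 2.05) and SMC1 (3.30 and 2.10), which encode core and associated subunits. The shares of all genes called higher were 24% in wild type and 9.69% in kfc1. The wild-type 0 h group that stood apart is the start of the first count. That count includes MCD1, with a mean of 1.92 over this 0 h group. In kfc1 with IME1 the mean of MCD1 over its own 0 h group was 0.29, which was not called. Without overexpression 0 of the 11 rose in either genotype, against 2.37% of all genes in wild type and 6.87% in kfc1. MCD1 fell, by 1.08 in wild type and 2.43 in kfc1.

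MCD1, the mitotic counterpart of REC8, differed from it in course. With IME1 it stood at 0.72, -0.20, 0.04, 0.34 and 0.55 at 2 to 12 h in wild type and at -0.11, -0.04, 0.72, 1.50 and 1.93 in kfc1, where REC8 stood at 4.60 at 12 h. With IME1 and RIM4 it stood at -0.02, -0.54 and 0.90 at 12, 24 and 48 h in wild type and at 2.06, 1.06 and 1.47 in kfc1. MCD1 was thus higher in kfc1 by 2.08 at 12 h and 1.60 at 24 h, at a time when REC8 differed by -0.52 and 1.61. PDS1, the securin gene that restrains cohesin cleavage, and ESP1, the separase gene, were lower in kfc1 at 12 h, by -1.88 and -1.32, and PDS1 was higher at 24 h (1.19) and 48 h (1.01).

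Of the 4 genes for monopolin kinases and their subunits, CDC5 (-4.03) and HRR25 (-2.01), the kinase subunit of monopolin itself, were lower in kfc1 at 12 h with IME1 and RIM4. CDC7 (-0.57) and DBF4 (-0.41) were not called, and 11.1% of all genes were called lower in this comparison. Of the 7 nucleolar partners of Csm1 and Lrs4, SRC1 (-1.80, a nuclear envelope protein gene also called HEH1) and CDC14 (-1.69, the phosphatase released from the nucleolus in anaphase) were lower, and the median of the list was -0.05.

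A further list held 10 genes, for subunits of the phosphatase type that works with shugoshin, for the chromosomal passenger complex and for the kinase Bub1. Of these, 0 were called between the genotypes at 12 h with IME1 and RIM4, against 19.2% of all genes in either direction. Over 12 to 48 h against 0 h, 3 of these 10 rose in each genotype: SLI15 (3.40 in wild type, 3.87 in kfc1) and IPL1 (2.97 and 3.49) of the passenger complex, and the checkpoint kinase gene BUB1 (1.37 and 1.97). Of all genes 15.5% rose in wild type and 20.4% in kfc1, so that 3 of 10 is not far from the share over the table. The phosphatase genes TPD3 (-1.22) and CDC55 (-1.02) fell in kfc1, where 13.2% of all genes fell. Of 5 spindle checkpoint genes 3 rose in each genotype, BUB3 by 1.84 and 2.19, MPS1 by 1.77 and 1.19 and MAD3 by 1.28 and 1.11.

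Of 11 telomere and nuclear envelope genes, 4 rose over 12 to 48 h in wild type, where 15.5% of all genes rose, and 5 in kfc1, where 20.4% did. The list medians were 0.72 and 0.78, against 0.00 and 0.01 for all genes. RIF1, a telomere length regulator, rose by 2.66 and 2.87, MPS2, a nuclear envelope protein gene of the bridge that Csm4 joins, by 2.17 and 2.44, and BBP1, which binds Mps2, by 2.03 and 2.25. MPS3, whose protein Ndj1 binds at the inner nuclear membrane, was not called, with 0.72 and 0.78. At 12 h BBP1 (-1.67), RIF1 (-1.60) and MPS2 (-1.12) were lower in kfc1 and YKU70 (1.14) was higher. Of all genes 11.1% were called lower and 8.06% higher in this comparison.

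Likeness of course was described with Pearson's r over the 31 condition columns other than the reference. The columns share references, arms and time points and are not independent, so r has no p. REC8, SPO13 and NDJ1 followed each other most closely, with r between 0.98 and 0.99. They followed IME2 (0.97 to 0.99) more closely than NDT80 (0.60 to 0.64). MAM1 followed NDT80 (0.95) and SGO1 (0.95) more closely than IME2 (0.78), and SGO1 had r of 0.90 with NDT80 and 0.85 with IME2. The members with a URS1 core outside other genes included CSM4, whose r was 0.77 with IME2 and 0.78 with NDT80. LRS4, with a match to neither motif, had r of 0.47 with IME2 and 0.64 with NDT80. For CSM1 r was 0.93 with IME2 and 0.79 with NDT80.

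Among the 6479 genes with a value in every column, those most like REC8 were NDJ1 (0.990), the double-strand break gene MEI4 (0.989) and the chromosome axis gene RED1 (0.989). Those most like SPO13 were NDJ1 (0.994), the checkpoint ATPase gene PCH2 (0.993) and YLL047W (0.993), and most like NDJ1 were RNP1 (0.994), SPO13 (0.994) and the strand exchange gene MEI5 (0.993). SGO1 was most like the exonuclease gene EXO1 (0.987), the spore membrane gene SMA1 (0.967) and DIG2 (0.965). MAM1 was most like RRT5 (0.978), YGL138C (0.977) and APC4 (0.977), a subunit gene of the anaphase-promoting complex.

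CSM1 was most like the replication helicase gene MCM5 (0.945), YBR184W (0.938) and QRI1 (0.938). CSM4 was most like the galactose gene GAL10 (0.969), the crossover gene MLH3 (0.965) and YGR016W (0.951). LRS4 had the weakest likenesses, with VPS30 (0.869), IKS1 (0.860) and SWC4 (0.837), and its small range over the conditions enters them.

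**Figure D5:**
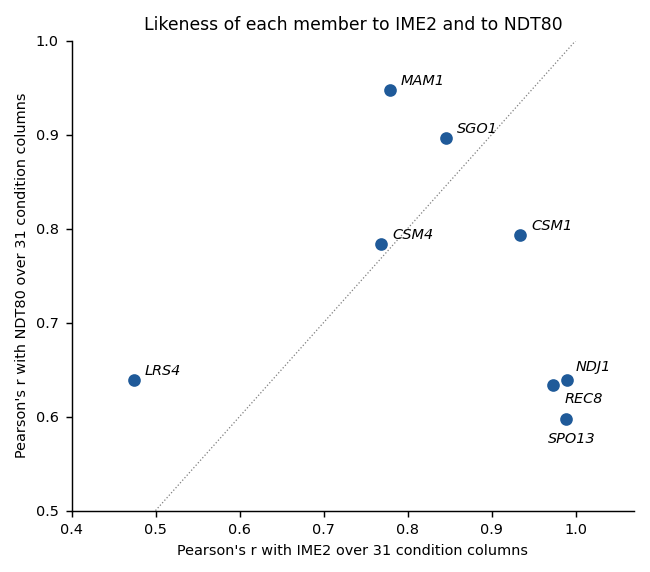
Pearson's r of each member with IME2 (horizontal axis) and with NDT80 (vertical axis) over 31 condition columns; the dotted line marks equal r. REC8, SPO13 and NDJ1 lie at the lower right and CSM1 also lies below the line. MAM1, SGO1, LRS4 and, narrowly, CSM4 lie above it, LRS4 at the left with r of 0.47 with IME2.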

How the data were processed

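The authors deposited 1 table of log2 ratios, with the 2 replicates of each of 32 groups combined. BWA, DESeq2 and the sacCer3 build are named in the submitters' processing notes without their roles. How reads were counted, and whether ratios were shrunken, is not stated in the labels used here. The base of the logarithm is not in the header and was taken as 2. Wild type without overexpression at 0 h is 0 for every gene. The 5 columns of kfc1 cultures sampled at 2 to 12 h with no overexpression were read as ratios to kfc1 at 0 h, because the deleted gene was near 0 in them and because genes blank in wild type were negative there in 31 of 102 values, against 0 of 401 in the overexpression columns. Each gene's kfc1 value at 0 h was therefore added. A total of 4 lines were empty.

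Of 6660 identifiers, 5986 were in the RefSeq table. Differences, calls, ranks and r were computed over all genes with Python 3.11.15 and pandas 2.3.3. The call rule was run on simulated independent differences as a check of the code only. None was set at the threshold, so the run says nothing of error rates in these data. There were 20 planned comparisons and 8 added after the values were known (single times and steps with IME1 and RIM4). The members and the 9 gene lists (104 genes, all measured) were chosen with earlier results of these data known. Named are all members, up to 3 genes of a list with the largest differences plus those discussed beside them, which were picked after their values were seen, and the 3 genes most like each member. Alternatives were centring, a threshold of 0.5, no same-sign rule, time points left out, other starts, the columns as deposited, and 139 genes sharing exact values left out.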

Additional observations from a re-analysis of the deposited data

Results flagged for a closer look

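The difference between kfc1 and wild type in MAM1 with IME1 and RIM4 went past 2-fold in opposite directions at different times. It was -3.44 at 12 h and 1.45 at 48 h, with 0.83 at 24 h between them. No other member did this in any arm. The change between the times was not tested, since each value is the authors' combined value of 2 replicates.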

How the results depend on the processing

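No replicate could be left out and no paired analysis was possible because the table holds the replicates combined, so neither alternative was run. Ratios may be shrunken, and depth is unknown, so differences near the threshold are not firm. Of the recomputed counts of called members, 298 were within 1.5 times the reported count and 16 were not. The 298 include counts of 0 that stayed 0. They also include the counts without the 139 genes sharing exact values, of which 0 were members, so that alternative could change no count. Without the 12 h groups, kfc1 against wild type with IME1 and RIM4 gave 2 members higher in place of 0, and MAM1 turned from -0.39 to 1.14, as its 12 h difference is then absent. The other changed counts came from the threshold of 0.5, which can only add members. For kfc1 against wild type it gave at 0 h 1 higher and 2 lower without overexpression, 1 higher and 3 lower with IME1, and 3 lower with IME1 and RIM4. It gave 5 lower at 12 h with IME1, and with IME1 and RIM4 7 lower at 12 h, 4 higher at 24 h and 3 higher at 48 h. It gave 1 lower in the response to IME1 between genotypes, 4 higher over time in wild type without overexpression, 4 higher for RIM4 added to IME1 in wild type, and 6 higher from 8 to 12 h in kfc1 with IME1. From 24 to 48 h with IME1 and RIM4 it gave 1 higher in wild type and 3 lower in kfc1. Centring the columns on their medians changed no count past 1.5 times; CSM4 passed the call at 12 h with IME1 and RIM4, at -1.01. With the kfc1 columns as deposited, MAM1 over time without overexpression (1.08) and SGO1 for IME1 against none (1.27) were called.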

Other observations

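With IME1 and RIM4, kfc1 at 24 h was set beside wild type at 12 h, the times at which MAM1, SGO1 and CSM1 were highest in each. CSM1 (-0.04), LRS4 (-0.33), MAM1 (-0.41) and REC8 (-0.46) lay within 2-fold, and SGO1 (-1.17), CSM4 (-1.34), SPO13 (-1.35) and NDJ1 (-1.40) were lower in kfc1, against 4.46% of all genes called lower. Of 24 early recombination and axis genes 13 were lower in this comparison and 0 higher (median -1.08). Of 20 middle meiotic genes 0 were lower and 2 higher (median -0.22). Of all genes 8.57% were called higher, so that 2 of 20 is not far from the share over the table.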
